A study of Mus musculus with 64 samples.

Results

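The results describe 10 genes of the hypoxia pathway in 4 cell populations of the mouse heart, taken by gene symbol from a deposited table of 20637 genes. They are the oxygen-regulated transcription factor subunits Hif1a, Epas1 and Hif3a, the oxygen sensors Egln1 and Egln3, and the target genes Ankrd37, Bnip3, Adm, Ddit4 and Pdk1. All 10 were found, and all 10 passed the filter on low values in every population.

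As background, the EGLN enzymes use oxygen to hydroxylate the HIF alpha subunits, which are then bound by the von Hippel-Lindau protein and degraded. When oxygen is short the subunits persist, pair with ARNT and bind ACGTG or GCGTG elements of genes for glycolysis, vessel growth, mitochondrial removal and the sensors themselves. HIF alpha is set largely at the level of protein, so the RNA of Hif1a or Epas1 is not a measure of the activity of the factor. After birth the heart moves into a higher oxygen supply and from glycolysis towards fatty acid oxidation, and HIF signalling takes part in that change.

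All animals were CD1 mice. In the P56 groups, adult male mice (postnatal day 56) had a myocardial infarction (MI) by permanent ligation of the left descending coronary artery or a sham operation without it. In the P1 groups, pups had an infarction or a sham operation on postnatal day 1, and ventricles were pooled 6 at a time. Cells were taken 3 days after surgery, and each combination of age, operation and population had 4 libraries, giving 16 groups and 64 libraries of total RNA. Cardiomyocytes were the dense fraction of a Percoll gradient. Fibroblasts (CD90+/CD45-/CD31-), leukocytes (CD45+) and endothelial cells (CD31+/CD45-) were sorted from the lighter fraction. Neonatal ventricles were cut up and digested under agitation, whereas adult hearts were perfused with warm oxygenated buffer and then enzyme. Age therefore cannot be told apart from the isolation, from pooling or from any difference in sex. Nothing in the protocols tells whether the 4 libraries of a group were made from different pools or animals, and the p-values cover no more than the variation among the libraries, which may be technical.

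The libraries held 9.59 to 27.5 M recovered reads, and 7 of the 64 had over 5% of reads on 18S ribosomal RNA. Values are in the authors' CPM, read counts scaled to effective library sizes, and the limit set by 3 reads was 0.102 to 0.409 CPM. Under this scaling the values of a library did not sum to a fixed total. The sums were 1.93e+06 to 2.63e+06 CPM in P56 sham cardiomyocytes, against 895200 to 1.27e+06 CPM in P1 sham cardiomyocytes. P56 cardiomyocyte values are thus raised relative to total reads, and a scaling to total reads alone was not tested. This bears on each comparison of P56 cardiomyocytes with P1 cardiomyocytes or with other populations. The lowest member value was 5 reads of Hif3a, so no member was at or under 3 reads in any library. The labels were checked against summed marker genes. The 14 cardiomyocyte markers summed to 5243 to 19242 CPM in P56 MI leukocytes and 75832 to 207637 CPM in P56 sham leukocytes, against 183200.0 to 215522 CPM in P56 sham cardiomyocytes and 45494 to 73077 CPM in P1 sham cardiomyocytes. Leukocyte replicate 1 of P56 sham, at the top of its range, was within the range of the P56 sham cardiomyocytes. The 8 leukocyte markers summed to 3979 to 5116 CPM in P56 MI leukocytes, 1373 to 2647 CPM in P56 sham, 3747 to 4555 CPM in P1 MI and 1331 to 1973 CPM in P1 sham, and to at most 332 CPM in any other population. No marker of these lists was at 0 in a whole group. The P56 cardiomyocyte libraries numbered 3 stood apart, with 12.1% of reads on mitochondrial ribosomal RNA in the MI library (20.3 to 27.3% in the other MI libraries) and 38.2% in the sham library (23.1 to 29.9% in the other sham libraries). In bulk RNA, fewer cells of a type and less RNA per cell cannot be told apart.

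The members lie on GRCm38, the build the deposited gene coordinates match, as follows. Hif1a is at chr12:73901375-73947530, plus strand, Epas1 at chr17:86753907-86833410, plus strand and Hif3a at chr7:17031507-17062427, minus strand. Egln1 is at chr8:124908596-124949254, minus strand, and Egln3 at chr12:54178981-54203860, minus strand. Ankrd37 is at chr8:45996902-45999867, minus strand, Bnip3 at chr7:138890836-138909519, minus strand and Adm at chr7:110627661-110629820, plus strand. Ddit4 is at chr10:59949675-59951770, minus strand, and Pdk1 at chr2:71873224-71903858, plus strand. Egln1, Egln3, Ddit4 and Pdk1 overlap no other annotated gene. Hif1a shares its strand with Gm49321 and Epas1 with AC096777.1, so reads there could be shared. Ankrd37 lies opposite Ufsp2 and Lrp2bp, and Hif1a, Hif3a, Bnip3 and Adm lie opposite non-coding or predicted genes. Whether reads were counted by strand was not given in the sources used here, and without strand the reads of opposite genes cannot be told apart.

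The 250 bases upstream of the annotated start, from RefSeq on GRCm38.p6, were searched on both strands for ACGTG and GCGTG, counting overlapping matches. RefSeq entries were matched for 9 of the 10 members, Epas1 being the other. Each of the 9 held at least 1 match in an upstream window, with 5 in Bnip3, 4 in Ankrd37, 3 in Hif1a, whose window lies downstream of the gene start in the deposited table, and 1 each in Egln3 and Pdk1, while a second Pdk1 window held 0. Either motif stood in 38.6% of all 32851 such windows, ACGTG in 16.6% and GCGTG in 28.2%. A match is a run of letters and no evidence of binding. The windows printed are those of the 5 genes with an entry that were higher in P56 than in P1 sham cardiomyocytes. They run 5′ to 3′ along the gene's strand, and capitals mark the matches.
Egln1 (chr8:124949255-124949504, minus strand): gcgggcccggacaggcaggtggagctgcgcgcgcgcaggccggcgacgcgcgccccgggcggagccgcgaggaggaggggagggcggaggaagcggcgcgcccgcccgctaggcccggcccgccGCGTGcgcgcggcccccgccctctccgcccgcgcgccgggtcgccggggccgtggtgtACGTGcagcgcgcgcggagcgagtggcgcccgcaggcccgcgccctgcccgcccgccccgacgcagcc
Egln3 (chr12:54203875-54204124, minus strand): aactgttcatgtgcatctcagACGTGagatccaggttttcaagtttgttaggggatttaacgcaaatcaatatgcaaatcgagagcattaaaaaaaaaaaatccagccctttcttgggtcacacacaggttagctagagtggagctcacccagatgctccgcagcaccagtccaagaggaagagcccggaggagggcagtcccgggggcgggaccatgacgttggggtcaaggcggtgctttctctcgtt
Bnip3 (chr7:138909507-138909756, minus strand): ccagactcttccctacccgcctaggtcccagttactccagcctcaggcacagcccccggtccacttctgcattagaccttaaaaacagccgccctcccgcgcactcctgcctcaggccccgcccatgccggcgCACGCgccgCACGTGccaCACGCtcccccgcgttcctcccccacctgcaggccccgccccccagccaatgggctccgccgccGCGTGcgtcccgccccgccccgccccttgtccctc
Ddit4 (chr10:59951771-59952020, minus strand): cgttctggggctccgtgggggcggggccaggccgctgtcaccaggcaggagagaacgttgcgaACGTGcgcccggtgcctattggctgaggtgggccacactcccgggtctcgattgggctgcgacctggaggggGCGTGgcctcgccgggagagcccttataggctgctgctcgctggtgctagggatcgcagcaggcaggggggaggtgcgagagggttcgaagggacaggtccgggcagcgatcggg
Pdk1 (chr2:71872974-71873223, plus strand): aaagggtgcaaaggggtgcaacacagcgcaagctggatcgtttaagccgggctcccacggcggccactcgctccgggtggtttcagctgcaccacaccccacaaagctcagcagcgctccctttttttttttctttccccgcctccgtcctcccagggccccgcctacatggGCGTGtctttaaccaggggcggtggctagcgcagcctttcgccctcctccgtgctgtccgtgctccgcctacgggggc
The Egln1 and Ddit4 windows each hold 1 ACGTG and 1 GCGTG. Bnip3 holds 2 ACGTG and 3 GCGTG, the ACGTG pair being the 2 strands of a single CACGTG.

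The populations differed in which members they carried. By the means of the sham groups, adult cardiomyocytes stood highest for Egln1, Egln3, Bnip3, Pdk1 and Ddit4. For Ddit4 they were not called to differ from adult endothelial cells. Endothelial cells stood highest for Epas1 and Ankrd37, and fibroblasts for Hif3a and Adm. In P56 sham hearts Pdk1, a kinase that inhibits pyruvate dehydrogenase and so holds pyruvate back from the citric acid cycle, averaged 362 ± 80.4 CPM in cardiomyocytes, 176 ± 88.9 CPM in leukocytes, 49.1 ± 6.72 CPM in endothelial cells and 17.9 ± 2.80 CPM in fibroblasts (SD, n = 4 each). Every neighbouring pair in that order differed at an adjusted p under 0.05 in limma, at P56 and at P1 alike. The P1 step from endothelial cells to fibroblasts was lost without the libraries over 5% 18S (adjusted p = 0.0603). Epas1, which encodes HIF-2 alpha, averaged 930.2 ± 120.1 CPM in P56 sham endothelial cells, against 228 ± 30.2 CPM in cardiomyocytes, 141 ± 29.6 CPM in fibroblasts and 141 ± 48.1 CPM in leukocytes. The difference between the last pair was not called (adjusted p = 0.882).

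Ankrd37, which encodes a small ankyrin-repeat protein, averaged 17.2 ± 5.41 CPM in P56 sham endothelial cells, and between 1.62 ± 0.422 CPM and 2.96 ± 0.767 CPM in the other populations, whose neighbours in order were not called to differ. Adm, which encodes the vasodilator peptide adrenomedullin, averaged 44.6 ± 17.4 CPM in P56 sham fibroblasts, against 9.12 ± 1.22 CPM in endothelial cells, 5.89 ± 2.69 CPM in cardiomyocytes and 2.85 ± 0.282 CPM in leukocytes. At P1 the order for Adm was the same, but fibroblasts and endothelial cells were not called to differ (adjusted p = 0.447), nor were cardiomyocytes and leukocytes (0.707). The P1 step of Adm from endothelial cells to cardiomyocytes was lost without the libraries over 5% 18S (adjusted p = 0.0789). Hif3a, whose product can restrain the other HIF factors, was the scarcest member per length of gene, with a mean of 0.538 CPM per kilobase over the 16 groups. It averaged 5.41 ± 2.09 CPM in P56 sham fibroblasts and 0.966 ± 0.501 CPM in P56 sham cardiomyocytes. Hif1a varied least between groups, with a ratio of 3.55 between the highest and the lowest group mean, against 22.5 for Egln3 and 22.1 for Bnip3.

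The sensors and Bnip3 were led by cardiomyocytes at P56. Egln1 averaged 677 ± 108 CPM in P56 sham cardiomyocytes, 189 ± 73.7 CPM in leukocytes, 179.6 ± 17.1 CPM in endothelial cells and 62.0 ± 3.56 CPM in fibroblasts, and only leukocytes and endothelial cells were not called to differ. At P1 its order was endothelial cells (105 ± 7.37 CPM), cardiomyocytes (96.0 ± 27.5 CPM), leukocytes (66.8 ± 7.88 CPM) and fibroblasts (54.2 ± 3.14 CPM), with a called step only between cardiomyocytes and leukocytes. That step was lost without P1 cardiomyocyte replicate 2 (adjusted p = 0.0832) or 3 (0.0863). Egln3 averaged 146 ± 30.3 CPM in P56 sham cardiomyocytes, against 31.2 ± 19.6 CPM in leukocytes, 9.36 ± 2.07 CPM in endothelial cells and 7.23 ± 2.99 CPM in fibroblasts. Bnip3 averaged 90.5 ± 11.2 CPM in P56 sham cardiomyocytes and between 7.35 ± 1.41 CPM in fibroblasts and 22.4 ± 8.83 CPM in leukocytes. P56 sham leukocytes, second for Egln1, Egln3, Bnip3 and Pdk1, held 75832 to 207637 CPM of cardiomyocyte markers. Replicate 1 had the most of these markers and the highest Egln1, at 299 CPM, against 145 to 159 CPM in the others. The part of cardiomyocyte RNA in that rank was not tested.

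Hif1a was highest in endothelial cells at P56, with 155 ± 6.19 CPM, then 122 ± 26.8 CPM in leukocytes, 118 ± 26.0 CPM in cardiomyocytes and 87.3 ± 3.00 CPM in fibroblasts. Leukocytes and cardiomyocytes were not called to differ, and the step from endothelial cells to leukocytes was lost without leukocyte replicate 3 (adjusted p = 0.131) or endothelial replicate 4 (0.0547). The step from cardiomyocytes to fibroblasts was lost without cardiomyocyte replicate 2 (0.0537). At P1 it averaged 300.5 ± 36.6 CPM in leukocytes, 277 ± 39.2 CPM in cardiomyocytes, 241 ± 23.1 CPM in endothelial cells and 154 ± 9.81 CPM in fibroblasts, and only the last step was called. Ddit4 averaged 80.0 ± 20.3 CPM in P56 sham cardiomyocytes and 68.4 ± 10.1 CPM in endothelial cells, which were not called to differ, above 20.4 ± 4.58 CPM in fibroblasts and 18.5 ± 6.69 CPM in leukocytes.

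Per kilobase of gene length, a scale on which genes can be compared, Egln1 led the members in P56 sham cardiomyocytes at 193 CPM per kilobase. Pdk1 followed at 69.9, then Egln3 at 54.7, Bnip3 at 51.6, Ddit4 at 47.5, Epas1 at 42.9 and Hif1a at 27.0 CPM per kilobase. Adm, Ankrd37 and Hif3a were under 5 CPM per kilobase there.

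In P56 sham hearts the number of members called between populations was 9 for cardiomyocytes and fibroblasts (82.4% of all genes called), 9 for cardiomyocytes and leukocytes (78.4%), 8 for cardiomyocytes and endothelial cells (82%), 7 for fibroblasts and leukocytes (67.9%), 9 for fibroblasts and endothelial cells (52.9%) and 7 for leukocytes and endothelial cells (65.4%). In P1 sham hearts the same pairs gave 9 (69.1%), 6 (66.4%), 7 (71.2%), 7 (63.9%), 9 (55.4%) and 6 (52.6%). Most of the 17618 genes tested were called in each of these comparisons. The 4 populations were fractions of digested ventricles, and same-numbered P56 sham libraries of different populations deviated together, with a correlation of 0.118 to 0.415 in their deviations from the group means. With the number within each age as a block, the same pairs gave 9, 9, 9, 7, 10 and 7 members at P56 and 10, 6, 8, 7, 9 and 7 at P1. The shares of all genes given above belong to the fit without the block, so the counts under the block cannot be set against them.

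**Figure D1:**
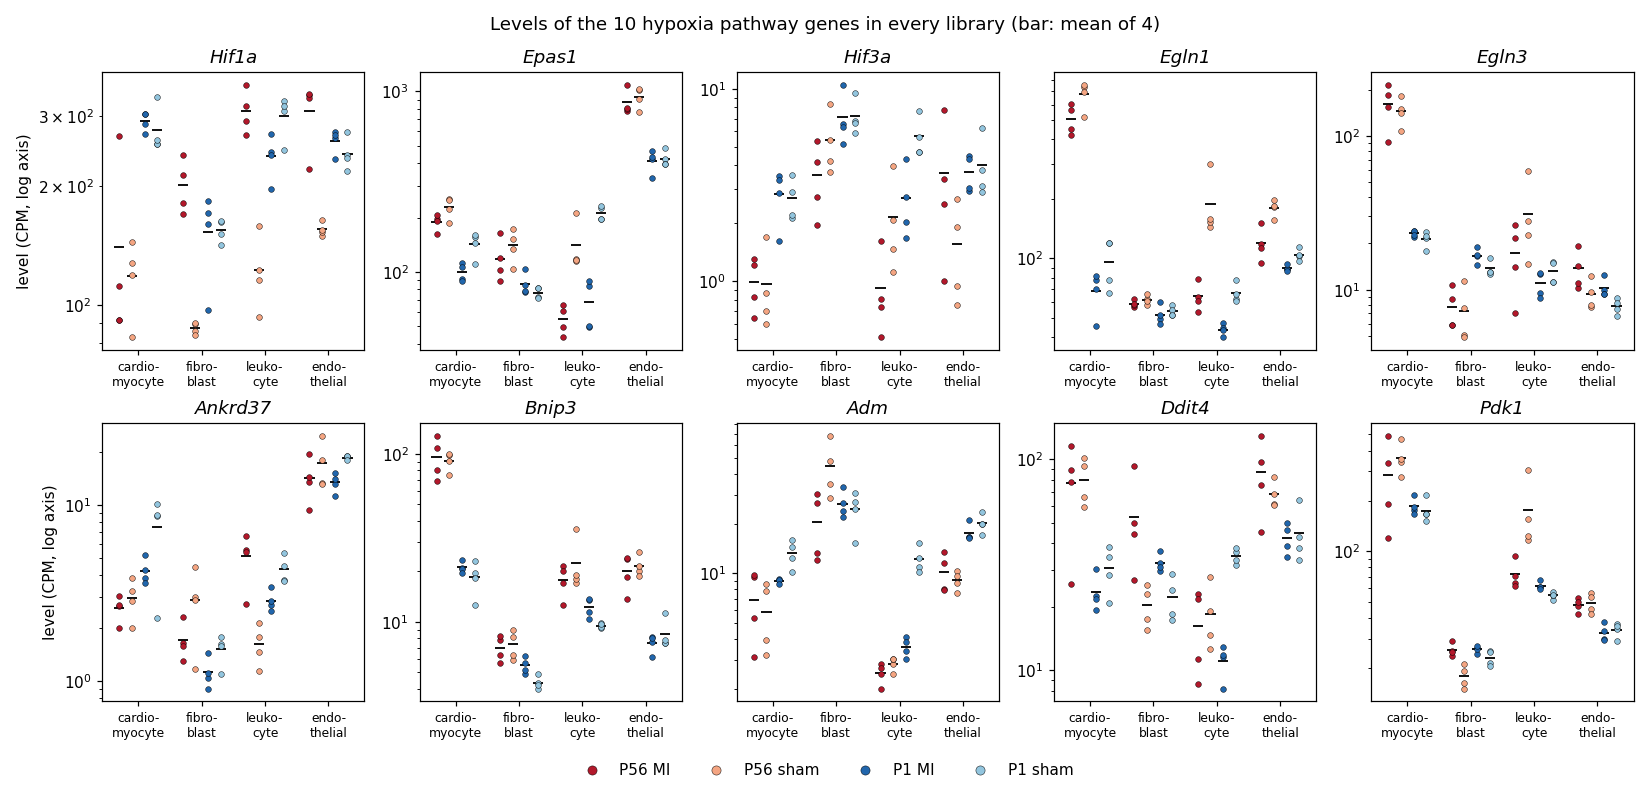
Level of each gene in each of the 64 libraries (CPM, log axis), by population, with the bar at the mean of 4 libraries and groups coloured by age and operation. Egln1, Egln3, Bnip3 and Pdk1 are highest in P56 cardiomyocytes, Epas1 and Ankrd37 in endothelial cells, and Hif1a in P56 fibroblasts, leukocytes and endothelial cells is higher after MI than after sham.

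Age was compared in sham hearts, P56 against P1. In cardiomyocytes all 10 members were called (adjusted p under 0.05, limma, Benjamini-Hochberg over all genes tested), as were 70.4% of all genes. On the authors' scaling 6 members were higher at P56, namely both sensors, Epas1, Bnip3, Ddit4 and Pdk1, and 4 were lower, namely Hif1a, Hif3a, Ankrd37 and Adm. The known targets of HIF thus moved in both directions.

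Egln1 encodes PHD2, the main prolyl hydroxylase that marks HIF alpha for degradation. It had 737, 693, 520.1 and 759 CPM in P56 sham cardiomyocytes, against 67.0, 119.9, 119 and 78.0 CPM in P1 sham cardiomyocytes (log2 fold change 2.84 ± 0.22, adjusted p = 2.8e-09). The lowest adult library was above the highest neonatal library by more than 4-fold. Egln3, which encodes the hypoxia-inducible hydroxylase PHD3, had 182, 108, 151 and 142 CPM at P56, against 21.7, 17.9, 23.9 and 22.3 CPM at P1 (log2 fold change 2.72 ± 0.22, adjusted p = 3.46e-09). The groups did not overlap.

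Bnip3, which encodes a mitochondrial protein that promotes mitophagy and cell death, had 74.7, 97.8, 99.2 and 90.4 CPM in P56 sham cardiomyocytes, against 23.1, 12.6, 19.5 and 18.3 CPM at P1 (log2 fold change 2.29 ± 0.20, adjusted p = 1.31e-08). Ddit4, which encodes REDD1, an inhibitor of mTOR complex 1, had 101, 92.8, 66.5 and 59.2 CPM at P56, against 28.3, 20.9, 38.2 and 34.4 CPM at P1 (log2 fold change 1.38 ± 0.34, adjusted p = 0.00135). Pdk1 had 344, 357, 277 and 471 CPM at P56, against 216, 168, 166 and 151 CPM at P1 (log2 fold change 1.03 ± 0.30, adjusted p = 0.00524). For all 3 genes each adult library was above each neonatal library.

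On the authors' scaling the factor subunits moved in opposite directions. Hif1a had 119, 144, 82.7 and 127 CPM in P56 sham cardiomyocytes, against 335, 256, 254 and 261 CPM in P1 sham cardiomyocytes (log2 fold change -1.24 ± 0.26, adjusted p = 0.000396), and Epas1 had 222, 252, 187 and 250.3 CPM at P56, against 110.1, 145, 156 and 161 CPM at P1 (log2 fold change 0.68 ± 0.16, adjusted p = 0.000984). Neither pair of groups overlapped. In recovered reads Epas1 had 1572 to 3571 in P56 sham and 1710 to 4592 in P1 sham cardiomyocytes, so its rise rests on the scaling. P1 replicate 1 stood above its group for Hif1a, and without it the log2 fold change was -1.14 (adjusted p = 0.002). Hif3a (-1.15 ± 0.26), Adm (-1.19 ± 0.32) and Ankrd37 (-1.06 ± 0.32, log2 fold change ± SE) were lower at P56. Ankrd37 overlapped, since P1 replicate 2, with 2.28 CPM, lay within the adult range while the other P1 libraries had 8.61 to 10.2 CPM. All 10 calls held without both P56 libraries numbered 3 of MI and sham. The 12 endothelial markers summed to 1117 to 1810.4 CPM in P56 sham cardiomyocytes, against 2562 to 4072 CPM in P1 sham, and the 11 fibroblast markers to 368 to 1110.1 CPM at P56, against 2532 to 6373 CPM at P1. The part of other cells in the differences was not tested.

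In P56 sham leukocytes all 10 members were called, beside 67.1% of all genes. Hif1a (-1.31 ± 0.15), Epas1 (-0.64 ± 0.22), Hif3a (-1.30 ± 0.31), Ankrd37 (-1.19 ± 0.22), Adm (-1.91 ± 0.15) and Ddit4 (-0.95 ± 0.28, log2 fold change ± SE) were lower at P56. Egln1 (1.43 ± 0.18), Egln3 (1.04 ± 0.38), Bnip3 (1.13 ± 0.20) and Pdk1 (1.57 ± 0.22) were higher. Those 4, with Ddit4, were the members whose P56 sham mean was highest in cardiomyocytes, and the cardiomyocyte marker sum was 75832 to 207637 CPM in P56 sham leukocytes, against 19439 to 25259.7 CPM in P1 sham leukocytes. The other lists moved between the same groups. Endothelial markers summed to 431 to 634 CPM in P56 sham leukocytes, against 3991 to 4736 CPM at P1, fibroblast markers to 549 to 1706 CPM at P56, against 3071 to 4985 CPM at P1, and mural markers to 733 to 1221 CPM at P56, against 1505 to 1882 CPM at P1. Neutrophil markers summed to 28.3 to 83.2 CPM at P56, against 1563 to 3134 CPM at P1, macrophage markers to 6918 to 13223 CPM at P56, against 3352 to 4117 CPM at P1, and the 15 handling and stress genes to 936 to 1950.3 CPM at P56, against 6206 to 8296 CPM at P1. The part of other cells, of the mix of leukocytes or of handling in these differences was not tested. Without P56 sham replicate 1 the log2 fold changes were 1.19 (adjusted p = 3.92e-07) for Egln1, 1.26 (adjusted p = 5.89e-07) for Pdk1 and 0.67 (adjusted p = 0.0883) for Egln3, so the Egln3 call was lost. It was also lost without P1 replicate 1 (adjusted p = 0.0536) or 2 (0.054), and the Epas1 call without P56 replicate 2 (0.0504), 3 (0.0531) or 4 (0.0523).

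In P56 sham endothelial cells 8 members were called, beside 62.9% of all genes. Epas1 had 769.7, 1019, 1026 and 906 CPM at P56, against 424, 482, 395 and 394 CPM at P1 (log2 fold change 1.13 ± 0.13, adjusted p = 1.23e-06), and Hif1a had 149, 152, 154 and 164 CPM at P56, against 239, 235, 273 and 218 CPM at P1 (log2 fold change -0.63 ± 0.12, adjusted p = 0.000181). The groups were apart for both genes, with the factors moving in opposite directions, as on the authors' scaling in cardiomyocytes. Bnip3 (1.31 ± 0.17), Egln1 (0.77 ± 0.11), Ddit4 (0.65 ± 0.25) and Pdk1 (0.52 ± 0.11, log2 fold change ± SE) were higher at P56, and Hif3a (-1.18 ± 0.40) and Adm (-1.10 ± 0.16) were lower. Egln3 (0.23 ± 0.18, adjusted p = 0.278) and Ankrd37 (-0.15 ± 0.20, adjusted p = 0.52) were not called. The Ddit4 call was lost without any of P1 replicates 1, 3 or 4 or P56 replicates 1 or 2 (adjusted p = 0.0564 to 0.102), and the Hif3a call without P1 replicate 2 or P56 replicates 1 or 4 (0.0513 to 0.0625). The cardiomyocyte marker sum was 9237 to 21021 CPM in P56 sham endothelial cells, against 679 to 2484 CPM at P1, and the mural marker sum 3179 to 4288 CPM at P56, against 1041 to 1207 CPM at P1. Their part in these differences was not tested.

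In P56 sham fibroblasts 7 members were called, beside 67% of all genes, with Egln3 among those lower at P56. Egln3 had 11.3, 5.09, 4.89 and 7.62 CPM in P56 sham fibroblasts, against 13.1, 12.7, 16.2 and 13.1 CPM at P1 (log2 fold change -0.95 ± 0.22, adjusted p = 0.00126). The groups did not overlap. Hif1a (-0.82 ± 0.16) and Pdk1 (-0.35 ± 0.11) were also lower at P56, while Epas1 (0.85 ± 0.17), Bnip3 (0.68 ± 0.15), Adm (0.83 ± 0.30) and Ankrd37 (0.66 ± 0.25, log2 fold change ± SE) were higher. Egln1 (0.19 ± 0.08, adjusted p = 0.0524), Hif3a (-0.42 ± 0.28, adjusted p = 0.191) and Ddit4 (-0.11 ± 0.27, adjusted p = 0.722) were not called. The Adm call was lost without P1 replicate 4 or P56 replicates 2 or 4 (adjusted p = 0.0549 to 0.0909), and the Ankrd37 call without P1 replicate 1 or P56 replicates 1, 3 or 4 (0.0636 to 0.122). The cardiomyocyte marker sum was 2846 to 6004 CPM in P56 sham fibroblasts, against 289.9 to 518 CPM in P1 sham, and its part was not tested.

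The age difference was compared between populations over the 32 sham libraries, in a test added after the levels were seen. The adult-over-neonatal log2 difference of Egln3 was larger in cardiomyocytes than in fibroblasts by 3.67 ± 0.37 (adjusted p = 7.78e-10), than in endothelial cells by 2.49 ± 0.37 (adjusted p = 1.15e-06) and than in leukocytes by 1.68 ± 0.37 (adjusted p = 0.000291). For Egln1 the same differences were 2.65 ± 0.25 (adjusted p = 1.99e-10), 2.07 ± 0.25 (adjusted p = 3.19e-08) and 1.41 ± 0.25 (adjusted p = 1.69e-05). On the authors' scaling the gain of both sensors with age was thus larger in cardiomyocytes than in each other population. For Hif1a, which was lower at P56 in all 4 populations, the age difference of cardiomyocytes minus endothelial cells was -0.61 ± 0.20 (adjusted p = 0.0081), that of leukocytes minus endothelial cells -0.68 ± 0.20 (adjusted p = 0.00639) and that of fibroblasts minus leukocytes 0.49 ± 0.20 (adjusted p = 0.0359), each called. The last call was lost without the libraries over 5% 18S (adjusted p = 0.0917) and without any of P1 leukocyte replicates 1, 3 or 4, P1 fibroblast replicates 2 or 4, P56 leukocyte replicates 2 or 3 or P56 fibroblast replicates 1 or 3 (0.0528 to 0.104). Cardiomyocytes minus fibroblasts gave -0.42 ± 0.20 (adjusted p = 0.0557), which was called with the number within age as a block (0.0362), by edgeR (0.0452) and without any of P1 cardiomyocyte replicates 2 or 3, P56 cardiomyocyte replicates 2 or 4 or P56 leukocyte replicates 1 or 3 (0.018 to 0.0491). Cardiomyocytes minus leukocytes gave 0.07 ± 0.20 (adjusted p = 0.783) and fibroblasts minus endothelial cells -0.18 ± 0.20 (adjusted p = 0.559), neither called. The members called were 7 between cardiomyocytes and fibroblasts (69.4% of all genes), 5 between cardiomyocytes and leukocytes (58.2%), 5 between cardiomyocytes and endothelial cells (64.8%), 8 between fibroblasts and leukocytes (51.7%), 3 between fibroblasts and endothelial cells (24%) and 5 between leukocytes and endothelial cells (41%).

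**Figure D2:**
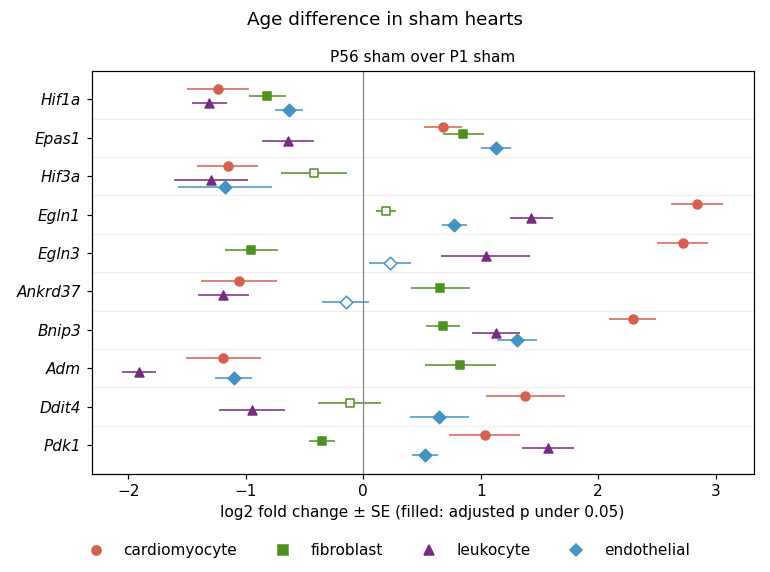
Log2 fold change of each gene in P56 sham over P1 sham libraries, with its standard error, in 4 populations (n = 4 libraries a group); filled symbols passed an adjusted p of 0.05 in limma. Egln1 and Egln3 lie near 2.8 in cardiomyocytes, and Hif1a lies below 0 in all 4 populations.

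Other genes of the pathway also moved both ways with age. Of 49 further known HIF targets found in the table, 24 rose and 19 fell of 48 tested in cardiomyocytes, and the median log2 fold change was 0.52 over the list and -0.09 over all genes. Of all genes 33.3% rose and 37% fell in cardiomyocytes. Hk2, which encodes a glycolytic hexokinase, averaged 651 ± 62.2 CPM in P56 sham, against 72.6 ± 7.93 CPM in P1 sham cardiomyocytes (SD, n = 4; log2 fold change 3.16 ± 0.14, adjusted p = 2.48e-12). P4ha2, a collagen prolyl hydroxylase, averaged 108 ± 6.04 CPM at P56 and 24.9 ± 1.85 CPM at P1, and Pdk3, another pyruvate dehydrogenase kinase, 2.57 ± 1.05 CPM at P56 and 28.0 ± 2.98 CPM at P1. Of 16 genes of the HIF machinery 6 rose and 2 fell (median -0.01 over the list and -0.09 over all genes), among them Hif1an, which encodes the asparagine hydroxylase that blocks HIF activation and was higher at P56 (log2 fold change 1.58 ± 0.16, adjusted p = 5.27e-08). In fibroblasts 11 rose and 21 fell of 48 tested among the targets (median -0.16 over the list and 0.03 over all genes), with Stc2, which encodes a stanniocalcin, at 115 ± 20.1 CPM in P56 and 12.3 ± 3.06 CPM in P1 sham fibroblasts. There 34.8% of all genes rose and 32.2% fell. In leukocytes 16 rose and 23 fell of 48 tested (median -0.39 over the list and -0.01 over all genes), with Stc1, of the same family, at 1.33 ± 0.759 CPM in P56 and 50.5 ± 9.61 CPM in P1 sham leukocytes. There 32.5% of all genes rose and 34.5% fell. In endothelial cells 11 rose and 15 fell of 48 tested (median -0.07 over the list and 0.05 over all genes), where 33.6% of all genes rose and 29.3% fell. Handling and stress genes moved with age as well. The 15 immediate early and heat shock genes of that list summed to 455 to 717 CPM in P56 sham cardiomyocytes, against 1927 to 3495 CPM at P1, and to 562 to 1023 CPM in P56 sham fibroblasts, against 6199.7 to 7745 CPM at P1. In endothelial cells they summed to 587 to 1456 CPM in P56 sham, against 4259.5 to 5897 CPM in P1 sham. Their part in the age differences was not tested.

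Infarction was compared with sham at each age. At P56 Hif1a was higher after MI in fibroblasts, leukocytes and endothelial cells, and at P1 it was called in none of the 4 populations in the main fit. Over the members, MI at P56 gave 4 calls in fibroblasts (50% of all genes), 6 in leukocytes (59.5%), 2 in endothelial cells (20.4%) and 0 in cardiomyocytes (9.69%). MI at P1 gave 5 calls in leukocytes (45.2%) and 0 in fibroblasts (2.37%), endothelial cells (0.216%) and cardiomyocytes (0.343%). The 15 immediate early and heat shock genes also moved with adult infarction: 11 of 15 rose in fibroblasts, 9 in leukocytes (1 fell), 8 in endothelial cells and 10 in cardiomyocytes, where Hif1a was not called. They summed to 1665 to 3257 CPM in P56 MI fibroblasts, against 562 to 1023 CPM in P56 sham. They were 1992 to 4425 CPM in P56 MI leukocytes, against 936 to 1950.3 CPM in P56 sham, and 1065 to 2354 CPM in P56 MI endothelial cells, against 587 to 1456 CPM in P56 sham. In cardiomyocytes they were 908 to 1721 CPM in P56 MI, against 455 to 717 CPM in P56 sham. At P1, 6 of the 15 fell in leukocytes, with sums of 4304 to 5989 CPM in P1 MI, against 6206 to 8296 CPM in P1 sham. Their part in the member differences was not tested.

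In fibroblasts Hif1a had 181, 169, 212 and 239 CPM in P56 MI, against 89.6, 85.7, 90.0 and 83.9 CPM in P56 sham hearts (log2 fold change 1.18 ± 0.16, adjusted p = 1.49e-05). Every infarcted library was above every sham library, with no overlap. At P1 the values were 171, 183, 97.0 and 159.7 CPM after MI, against 161, 142, 163 and 151 CPM after sham (log2 fold change -0.05 ± 0.16, adjusted p = 0.936). The adult infarct response exceeded the neonatal one by 1.24 ± 0.22 (adjusted p = 0.000682) on the log2 scale.

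Ddit4 had 49.7, 26.8, 44.0 and 93.2 CPM in P56 MI fibroblasts, against 25.3, 23.0, 17.6 and 15.5 CPM in P56 sham fibroblasts (log2 fold change 1.25 ± 0.27, adjusted p = 0.00111). The MI values spread widely but lay above all sham values. Pdk1 was higher by 0.52 ± 0.11 (adjusted p = 0.00108) on the log2 scale, and Adm was the member that fell, with 30.2, 12.1, 13.4 and 26.7 CPM after MI, against 34.8, 67.8, 28.4 and 47.5 CPM after sham (log2 fold change -1.13 ± 0.30, adjusted p = 0.00537). For Adm the groups overlapped. Its infarct response at P56 minus that at P1 was -1.27 ± 0.43 (adjusted p = 0.032) on the log2 scale, a call that was lost without any of P1 sham replicate 4, P56 sham replicates 2 or 4, P1 MI replicates 3 or 4 or P56 MI replicates 2 or 3 (adjusted p = 0.0501 to 0.0682). The difference between ages was called for these 2 members, Hif1a and Adm, beside 31.7% of all genes. The cardiomyocyte marker sum was 245 to 1058 CPM in P56 MI, against 2846 to 6004 CPM in P56 sham fibroblasts, and its part was not tested.

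In leukocytes Hif1a had 318, 269, 291 and 360.3 CPM in P56 MI, against 158, 116, 93.3 and 122 CPM in P56 sham hearts (log2 fold change 1.35 ± 0.15, adjusted p = 2.58e-06). At P1 it had 243, 239.6, 196 and 269 CPM after MI, against 328, 247, 309 and 319 CPM after sham (log2 fold change -0.34 ± 0.15, adjusted p = 0.077). The P1 value was called lower without P1 sham replicate 2 (-0.43, adjusted p = 0.0386) or without P56 sham replicate 1, which enters the same estimate of the spread (adjusted p = 0.0362). With all libraries and the replicate number as a block, the P1 value was also called lower (adjusted p = 0.0357). The groups were apart at P56 and overlapped at P1, and the response was higher at P56 by 1.70 ± 0.21 (adjusted p = 2.26e-05). Ankrd37 had 5.55, 5.43, 2.74 and 6.65 CPM in P56 MI leukocytes, against 1.45, 1.14, 2.13 and 1.77 CPM in P56 sham (log2 fold change 1.36 ± 0.22, adjusted p = 6.43e-05), and its response exceeded that at P1 by 1.87 ± 0.31 (adjusted p = 0.000201).

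Egln1 had 78.6, 64.1, 53.7 and 60.9 CPM in P56 MI leukocytes, against 299, 145, 152 and 159 CPM in P56 sham leukocytes (log2 fold change -1.49 ± 0.18, adjusted p = 6.11e-06). Pdk1 had 93.7, 70.8, 64.3 and 61.7 CPM after MI, against 307, 117, 123 and 157 CPM after sham (log2 fold change -1.17 ± 0.22, adjusted p = 0.000288). Epas1 had 49.2, 60.9, 65.9 and 43.4 CPM after MI, against 213, 118, 115 and 117 CPM after sham (log2 fold change -1.32 ± 0.22, adjusted p = 0.000104). All 3 were lower after MI without overlap, and sham replicate 1 was the highest sham library for each. Without that library the log2 fold changes were -1.25 (adjusted p = 8.42e-07), -0.87 (adjusted p = 4.76e-05) and -1.10 (adjusted p = 0.00021) in the same order of genes, and that of Hif1a was 1.48 (adjusted p = 7.74e-07). Hif3a was lower after MI (log2 fold change -0.85 ± 0.31, adjusted p = 0.0278), and this call was lost without P56 sham replicates 1 or 2 or P56 MI replicates 1, 2 or 3 (adjusted p = 0.0523 to 0.108). The cardiomyocyte marker sum was 5243 to 19242 CPM in P56 MI leukocytes, against 75832 to 207637 CPM in P56 sham, the leukocyte marker sum 3979 to 5116 CPM after MI, against 1373 to 2647 CPM after sham, and the macrophage marker sum 9167 to 14078 CPM after MI, against 6918 to 13223 CPM after sham. Fibroblast markers summed to 2276 to 7172 CPM after MI, against 549 to 1706 CPM after sham, mural markers to 107 to 241 CPM after MI, against 733 to 1221 CPM after sham, and neutrophil markers to 156 to 651 CPM after MI, against 28.3 to 83.2 CPM after sham. The part of these shifts in the member differences was not tested.

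At P1, 5 members fell after MI in leukocytes. Epas1 had 83.3, 49.3, 89.1 and 50.0 CPM in P1 MI, against 197, 225, 195 and 231 CPM in P1 sham leukocytes (log2 fold change -1.68 ± 0.22, adjusted p = 1.78e-05). Adm had 4.11, 3.84, 3.03 and 3.39 CPM after MI, against 11.0, 12.4, 15.2 and 10.2 CPM after sham (log2 fold change -1.63 ± 0.15, adjusted p = 4.31e-07). Ddit4 had 12.9, 11.5, 11.8 and 8.16 CPM after MI, against 31.6, 33.2, 36.3 and 37.8 CPM after sham (log2 fold change -1.62 ± 0.28, adjusted p = 0.000207). They were 3.21-fold, 3.09-fold and 3.07-fold lower after MI without overlap, and Egln1 (-0.60 ± 0.18) and Hif3a (-0.99 ± 0.31, log2 fold change ± SE) fell too. The Hif3a call was lost without P1 sham replicate 2 or P1 MI replicates 2 or 4 (adjusted p = 0.0504 to 0.0622). The 12 endothelial markers summed to 490.3 to 936 CPM in P1 MI leukocytes, against 3991 to 4736 CPM in P1 sham leukocytes, and to 174 to 261 CPM in P56 MI, against 431 to 634 CPM in P56 sham. Over 10 neutrophil markers the sums were 2081 to 3009 CPM after MI and 1563 to 3134 CPM after sham at P1, and over 9 macrophage markers 9615 to 11655 CPM after MI and 3352 to 4117 CPM after sham. At P1 the cardiomyocyte markers summed to 5675 to 15658 CPM after MI, against 19439 to 25259.7 CPM after sham, the 8 mural markers to 261 to 521 CPM after MI, against 1505 to 1882 CPM after sham, and the 6 erythroid markers found to 58.0 to 114 CPM after MI, against 529 to 787 CPM after sham. The part of other cells or of the mix of leukocytes was not tested.

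Between ages the infarct response of leukocytes differed for 6 members, beside 45.2% of all genes. Besides Hif1a and Ankrd37, Adm (1.46 ± 0.21, adjusted p = 5.69e-05) and Ddit4 (1.38 ± 0.39, adjusted p = 0.00986) had higher responses at P56, where neither was called to change, and Egln1 (-0.89 ± 0.26, adjusted p = 0.0115) and Pdk1 (-1.37 ± 0.31, adjusted p = 0.00252) had lower ones.

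**Figure D3:**
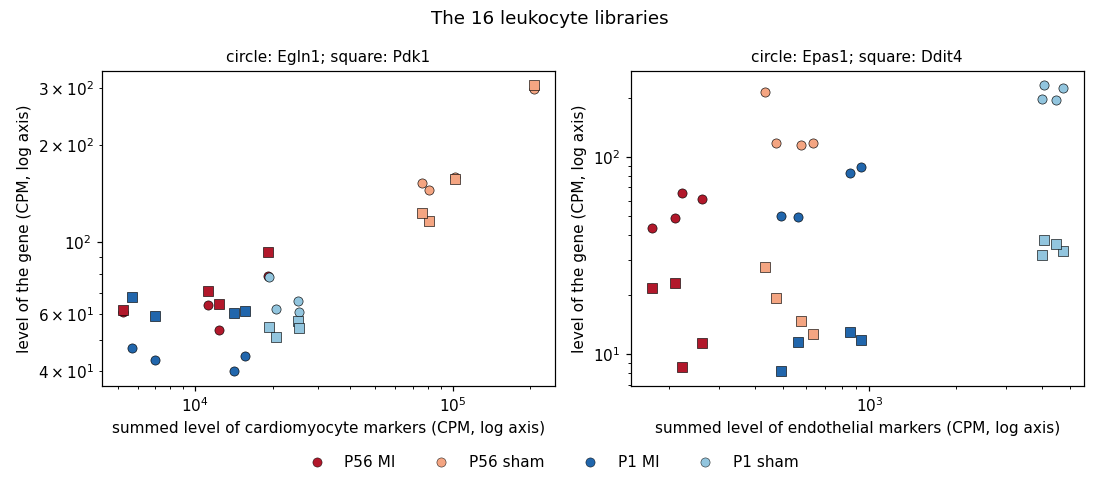
Levels of Egln1 and Pdk1 against the summed cardiomyocyte markers, and of Epas1 and Ddit4 against the summed endothelial markers, in each of the 16 leukocyte libraries (CPM, log axes). P56 sham libraries lie highest in cardiomyocyte markers, from 75832 to 207637 CPM, and P1 sham libraries highest in endothelial markers, from 3991 to 4736 CPM.

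In endothelial cells Hif1a had 339, 220.0, 334 and 342 CPM in P56 MI, against 149, 152, 154 and 164 CPM in P56 sham hearts (log2 fold change 0.97 ± 0.12, adjusted p = 6.02e-05). The groups were apart, and MI replicate 2 was the lowest of its group. Without that replicate the log2 fold change was 1.12 (adjusted p = 1.35e-07). Egln1 had 119, 152, 113 and 95.3 CPM after MI, against 183, 156, 183 and 197 CPM after sham (log2 fold change -0.60 ± 0.11, adjusted p = 0.00118), also without overlap. At P1 Hif1a had 263, 274, 233 and 268 CPM after MI, against 239, 235, 273 and 218 CPM after sham (log2 fold change 0.11 ± 0.12, adjusted p = 0.725), and its response was higher at P56 by 0.86 ± 0.17 (adjusted p = 0.00951), the only member so called, beside 5.41% of all genes. Without P56 MI replicate 2, Egln3 (0.63, adjusted p = 0.0161) and Hif3a (1.25, adjusted p = 0.0155) were called higher after MI, and the response of Egln1 was called lower at P56 than at P1 (-0.49, adjusted p = 0.0156). The cardiomyocyte marker sum was 3902 to 8627 CPM in P56 MI, against 9237 to 21021 CPM in P56 sham endothelial cells, and the mural marker sum 1455 to 2227 CPM after MI, against 3179 to 4288 CPM after sham. Leukocyte markers summed to 55.4 to 142 CPM after MI, against 15.6 to 25.6 CPM after sham, macrophage markers to 133 to 342 CPM after MI, against 57.6 to 73.8 CPM after sham, and fibroblast markers to 1409 to 3039 CPM after MI, against 975 to 1239 CPM after sham. Their part was not tested.

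In cardiomyocytes limma called 0 members after MI at P56, at P1 or in the difference between ages, the last beside 1.75% of all genes. An unadjusted p under 0.05 was reached by 0 members at P56, 2 at P1 and 0 in the difference, and edgeR also called 0 in each. Hif1a had 91.5, 91.4, 267 and 111 CPM in P56 MI, against 119, 144, 82.7 and 127 CPM in P56 sham cardiomyocytes (log2 fold change 0.12 ± 0.26, adjusted p = 0.839). MI replicate 3 stood far above the others, and without it the log2 fold change was -0.25 (adjusted p = 0.303). Pdk1 had 120.4, 336, 489 and 191 CPM after MI, against 344, 357, 277 and 471 CPM after sham (log2 fold change -0.52 ± 0.30, adjusted p = 0.308). Replicate 3 was again the highest, and without it Pdk1 was called lower after MI, at -0.85 (adjusted p = 0.022). Without both P56 libraries numbered 3, which differ in mitochondrial ribosomal RNA, Hif1a was called lower at -0.41 (adjusted p = 0.0415) and Pdk1 at -0.97 (adjusted p = 0.0128), and the infarct response at P56 minus that at P1 was -1.05 (adjusted p = 0.0418) for Pdk1 and 1.22 (adjusted p = 0.0261) for Adm. Hif1a thus took the opposite sign in that setting. At P1 Epas1 had 113, 107, 91.5 and 89.0 CPM after MI, against 110.1, 145, 156 and 161 CPM after sham (log2 fold change -0.51 ± 0.16, adjusted p = 0.199). Without P1 sham replicate 2, which held over 5% of reads on 18S, Ankrd37 was called lower after MI at P1, at -1.04 (adjusted p = 0.039).

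Outside leukocytes, 0 members were called after MI at P1 by limma or edgeR. In fibroblasts the log2 fold changes ran from -0.31 ± 0.25 for Ankrd37 to 0.56 ± 0.27 for Ddit4, and 0 members had an unadjusted p under 0.05. In endothelial cells they ran from -0.46 ± 0.20 for Ankrd37 to 0.37 ± 0.18 for Egln3, and 1 member had an unadjusted p under 0.05.

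**Figure D4:**
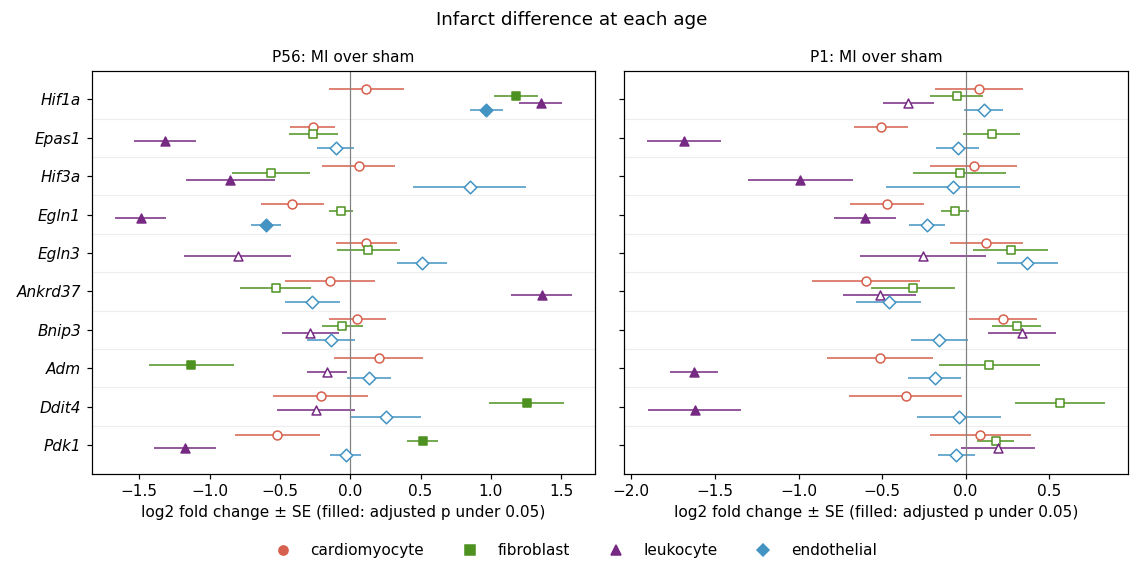
Log2 fold change of each gene in MI over sham libraries, with its standard error, at P56 (left) and P1 (right) in 4 populations (n = 4 libraries a group); filled symbols passed an adjusted p of 0.05 in limma. Hif1a is filled near 1.0 to 1.4 in P56 fibroblasts, leukocytes and endothelial cells, and the filled symbols at P1 are all of leukocytes.

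The other known HIF targets were followed in the same comparisons. In P56 fibroblasts 27 rose and 8 fell of 48 tested, with a median log2 fold change of 0.47 over the list and -0.03 over all genes. Of all genes 24.8% rose and 25.2% fell in P56 fibroblasts. Lox, the collagen cross-linking lysyl oxidase, averaged 949 ± 325 CPM in P56 MI, against 91.3 ± 22.6 CPM in P56 sham fibroblasts (SD, n = 4; log2 fold change 3.33 ± 0.23, adjusted p = 2.11e-08). Slc16a3, the lactate exporter MCT4, averaged 93.1 ± 32.3 CPM after MI and 11.6 ± 0.532 CPM after sham, and Ldha, lactate dehydrogenase A, 242 ± 55.1 CPM after MI and 78.5 ± 5.54 CPM after sham. In leukocytes 24 rose and 13 fell of 48 tested, with a median of 0.40 over the list and 0.02 over all genes, and Slc16a3 averaged 152 ± 52.0 CPM in P56 MI, against 9.87 ± 2.24 CPM in P56 sham leukocytes. Of all genes 30.7% rose and 28.8% fell in P56 leukocytes. In endothelial cells 13 rose and 2 fell of 48 tested, with a median of 0.15 over the list and 0.02 over all genes. Of all genes 12.5% rose and 7.88% fell there.

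In P56 cardiomyocytes, where no member was called, 8.66% of all genes rose and 1.03% fell. Among the other targets 10 rose and 0 fell of 48 tested, with a median of 0.30 over the list and 0.08 over all genes. They included Lox at 35.0 ± 15.9 CPM in P56 MI, against 1.38 ± 0.834 CPM in P56 sham cardiomyocytes, and Hmox1, heme oxygenase 1, at 72.5 ± 25.7 CPM after MI and 5.48 ± 1.78 CPM after sham. Markers of other cells moved with them. The 11 fibroblast markers summed to 1558 to 3391 CPM in P56 MI, against 368 to 1110.1 CPM in P56 sham cardiomyocytes, and the leukocyte markers to 92.2 to 303 CPM after MI, against 14.2 to 69.0 CPM after sham. Their part was not tested. At P1 the same list gave 1 rise in cardiomyocytes (Hmox1), 1 in fibroblasts (Hk2), 0 in endothelial cells, and 12 rises and 12 falls in leukocytes. Of all genes 22.6% rose and 22.6% fell in P1 leukocytes, and 0.285% rose in P1 cardiomyocytes and 1.99% in P1 fibroblasts. The infarct response was called higher at P56 than at P1 for 20 and lower for 4 of these targets in fibroblasts. There it was higher for 16.2% and lower for 15.5% of all genes. In leukocytes it was higher for 21 and lower for 9 of the targets, beside 23.7% and 21.5% of all genes. Of the 16 genes of the HIF machinery 5 rose and 4 fell after MI in P56 fibroblasts (median log2 fold change -0.05 over the list and -0.03 over all genes), where 24.8% of all genes rose and 25.2% fell. In P56 leukocytes 5 rose and 4 fell (median 0.11 over the list and 0.02 over all genes), where 30.7% of all genes rose and 28.8% fell.

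The balance of the 2 main factors was taken as the log2 ratio of Hif1a to Epas1, each in CPM per kilobase, which does not depend on library scaling. A total of 12 comparisons were tested with two-sided exact permutation tests of 4 libraries against 4, whose smallest possible p is 0.0286, adjusted over the 12. With age the ratio was lower in all 4 populations. In cardiomyocytes it was -0.63, -0.53, -0.90 and -0.70 in P56 sham, against 1.88, 1.10, 0.98 and 0.97 in P1 sham libraries. Epas1 RNA exceeded Hif1a RNA in each P56 sham cardiomyocyte library, and Hif1a exceeded Epas1 in each P1 sham cardiomyocyte library. The differences, P56 minus P1, were -1.92 in cardiomyocytes, -1.76 in endothelial cells, -1.68 in fibroblasts and -0.67 in leukocytes (each exact permutation p = 0.0286, adjusted 0.0429).

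After MI at P56 the ratio was higher in fibroblasts by 1.45, in leukocytes by 2.68 and in endothelial cells by 1.07 on the log2 scale, and after MI at P1 in leukocytes by 1.35 (each exact permutation p = 0.0286, adjusted 0.0429). P56 MI fibroblasts had 1.10, 0.33, 1.53 and 1.28, against -0.68, -0.37, 0.07 and -0.59 in P56 sham fibroblasts. Of these 4 infarcted values, 1.10 and 1.28 lay within the 0.48 to 1.52 of P1 MI fibroblasts, 0.33 below it and 1.53 above it. Only 1.28 lay within the 1.25 to 1.36 of P1 sham fibroblasts. In cardiomyocytes the ratio differed by 0.38 after MI at P56 (exact permutation p = 0.314) and 0.59 at P1 (0.114), and at P1 it differed by -0.21 in fibroblasts (0.457) and 0.16 in endothelial cells (0.4). None of these 4 was called.

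**Figure D5:**
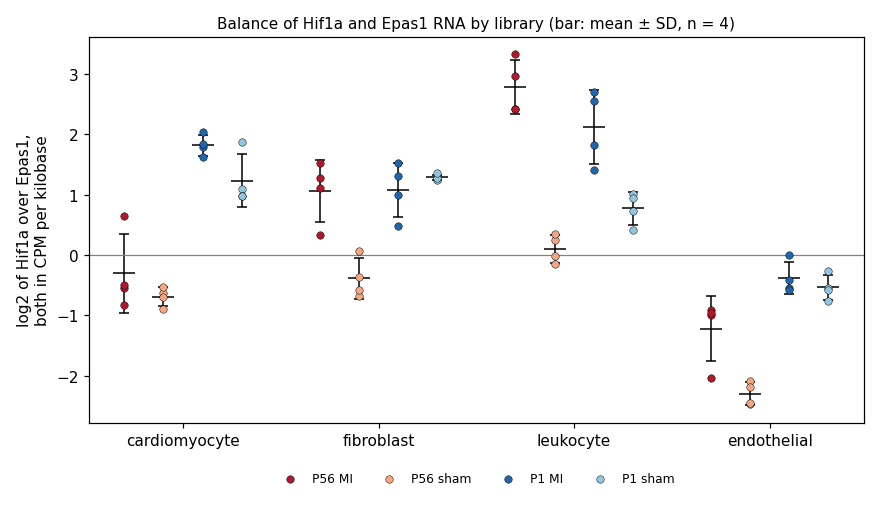
Log2 ratio of Hif1a to Epas1, both in CPM per kilobase, in each library, with mean ± SD of 4 libraries by population, age and operation. Sham values are lower at P56 than at P1 in each population, and P56 MI values are above P56 sham values in fibroblasts, leukocytes and endothelial cells.

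Likeness of pattern was described by the Pearson correlation of group means on the log2 scale over the 16 groups, which share libraries between genes, among 12663 genes with a mean of at least 5 CPM in at least 1 group. Among the members, Bnip3 was most like Pdk1 (0.88), Egln1 (0.87) and Egln3 (0.86), and most unlike Hif3a (-0.85). Hif1a was close to none, its highest correlation being 0.50, with Ankrd37, while Epas1 reached 0.78 with Ankrd37 and 0.77 with Ddit4. In the whole table the genes nearest to Epas1 were Caskin2 (0.98), Cxcl12 (0.98) and Slc9a3r2 (0.97), and those nearest to Egln1 were Map3k4 (0.98), Sdr39u1 (0.97) and Nfe2l1 (0.97). For Egln3 they were Ogdhl (0.97), Mrpl28 (0.97) and Alkbh7 (0.97), for Bnip3 Nubpl (0.97), Llgl2 (0.97) and Oma1 (0.96), and for Pdk1 Tmem144 (0.98), Nlrp10 (0.98) and mt-Co1 (0.98). For Ankrd37 they were Klk8 (0.96), Nlk (0.95) and Plcb1 (0.95), for Adm Lamb1 (0.96), Kcna6 (0.95) and Pcdhgc3 (0.95), and for Hif3a Trp53bp2 (0.92), Peg3 (0.92) and Rab2b (0.92). For Ddit4 they were Atoh8 (0.90), Cltb (0.90) and Erc1 (0.88). Ripk3 (0.85) and Ralb (0.85) were among the 3 nearest to Hif1a.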

How the data were processed

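RNA was measured in 64 libraries, 4 for each of 16 groups taken from the labels. Trimmomatic, STAR, HTSeq and edgeR were used, per the submitters' processing notes, which give no versions. They list mm10, GRCm38 and GRCh38 as builds and say nothing of which served for what. The deposited table holds a normalised signal per gene and library, which the authors named CPM, and a gene length in another unit, bases. Divided by the step between low values, 100% of the deposited values in every library came out as whole reads within 0.01, for 9.59 to 27.5 M recovered reads per library (median 20.6 M). The limit set by 3 reads was 0.102 to 0.409 CPM and covers counting error only. Whether reads were counted by strand was not given in the sources used here.

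The main test was limma 3.58.1 (R 4.3.3) with a mean-variance trend on log2(CPM + 0.5), for genes that reached 1 CPM in 4 or more libraries of the fit, over the 16 libraries of each population (15461 genes in cardiomyocytes, 15729 in fibroblasts, 16239 in leukocytes, 15706 in endothelial cells) or the 32 sham libraries (17618 genes). A gene was called where its Benjamini-Hochberg adjusted p, over all genes of the contrast, was under 0.05, and all adjusted p-values of genes come from limma unless edgeR 4.0.16 is named. Fold changes on this scale understate changes of low genes. The Hif1a to Epas1 ratio used exact permutation tests (scipy 1.17.1, Python 3.11.15), and figures used matplotlib 3.10.9. The limma and edgeR fits were tested on simulated data with 200 changed genes. Alternatives were other pseudocounts, filters and scaling, no trend, edgeR with TMM scaling on recovered reads, a replicate block, and leaving libraries out.

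All 10 members are described. From the other pathway lists up to 3 called genes of the smallest adjusted p per contrast could be named, and for each member the 3 genes of highest correlation. Some genes that this rule names are not reported here. Members and lists were chosen with earlier results of these data known. Comparisons of the age difference between populations were added after the levels were seen. Same-numbered MI and sham libraries of a population did not deviate together throughout. Same-numbered libraries of different populations did so in every pair of populations in P56 sham (each correlation above 0.1), but not throughout at P1. The labels describe the populations as fractions of digested ventricles and do not say what the numbers mark, so the number within age was added as a block. Genes that overlap on a strand may share reads.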

Additional observations from a re-analysis of the deposited data

Results flagged for a closer look

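Of 160 groups of 4 libraries, 10 held a library far from the other 3, where chance gives about 1 in 20. For Hif1a these were P56 MI cardiomyocyte replicate 3 (267 CPM, others 91.4 to 111), P1 sham cardiomyocyte replicate 1 (335 CPM, others 254 to 261) and P56 MI endothelial replicate 2 (220.0 CPM, others 334 to 342). For Epas1 they were P56 sham leukocyte replicate 1 (213 CPM, others 115 to 118) and P56 MI endothelial replicate 2 (1090.1 CPM, others 773 to 809). P56 sham leukocyte replicate 1 also stood high for Egln1 (299 CPM, others 145 to 159) and Bnip3 (35.6 CPM, others 17.1 to 19.0), and it held the most cardiomyocyte marker RNA of its group, whose part was not tested. The others were Egln3 in P1 sham fibroblast replicate 3 (16.2 CPM, others 12.7 to 13.1), Bnip3 in P1 sham endothelial replicate 2 (11.3 CPM, others 7.43 to 7.82) and Adm in P1 MI endothelial replicate 4 (21.2 CPM, others 16.3 to 16.6).

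The infarct response at P56 minus that at P1, in log2 units and called by limma, differed for Hif1a in fibroblasts (1.24), leukocytes (1.70) and endothelial cells (0.86). In fibroblasts it also differed for Adm (-1.27). In leukocytes it also differed for Egln1 (-0.89), Pdk1 (-1.37), Ddit4 (1.38), Adm (1.46) and Ankrd37 (1.87).

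The age difference was called to differ between populations in 33 of 60 comparisons of a gene over a pair of populations. Of all genes, 24% to 69.4% were called, depending on the pair. In 17 of the 33 the 2 populations had opposite signs, and in 15 of those both age differences were themselves called. For Hif1a the log2 difference was -0.61 for cardiomyocytes minus endothelial cells, 0.49 for fibroblasts minus leukocytes and -0.68 for leukocytes minus endothelial cells. For Epas1 it was 1.32 for cardiomyocytes minus leukocytes, 1.49 for fibroblasts minus leukocytes and -1.77 for leukocytes minus endothelial cells. For Egln1 it was 2.65 for cardiomyocytes minus fibroblasts, 1.41 for cardiomyocytes minus leukocytes, 2.07 for cardiomyocytes minus endothelial cells, -1.24 for fibroblasts minus leukocytes and 0.66 for leukocytes minus endothelial cells. The last Egln1 call was lost without the libraries over 5% 18S (limma adjusted p = 0.0594). For Egln3 it was 3.67 for cardiomyocytes minus fibroblasts, 1.68 for cardiomyocytes minus leukocytes, 2.49 for cardiomyocytes minus endothelial cells, -1.995 for fibroblasts minus leukocytes and -1.18 for fibroblasts minus endothelial cells. For Ankrd37 it was -1.71 for cardiomyocytes minus fibroblasts and 1.85 for fibroblasts minus leukocytes. For Bnip3 it was 1.61 for cardiomyocytes minus fibroblasts, 1.16 for cardiomyocytes minus leukocytes and 0.98 for cardiomyocytes minus endothelial cells. For Adm it was -2.02 for cardiomyocytes minus fibroblasts, 2.74 for fibroblasts minus leukocytes and 1.93 for fibroblasts minus endothelial cells. For Ddit4 it was 1.49 for cardiomyocytes minus fibroblasts, 2.33 for cardiomyocytes minus leukocytes, 0.73 for cardiomyocytes minus endothelial cells, 0.83 for fibroblasts minus leukocytes and -1.60 for leukocytes minus endothelial cells. The Ddit4 call at 0.73 was lost by edgeR (adjusted p = 0.0579), by limma with no trend (0.051) and without the libraries over 5% 18S (0.251). The Ddit4 call at 0.83 was lost by edgeR (0.0591) and by limma without the libraries over 5% 18S (0.0715). For Pdk1 it was 1.39 for cardiomyocytes minus fibroblasts, -1.92 for fibroblasts minus leukocytes, -0.88 for fibroblasts minus endothelial cells and 1.05 for leukocytes minus endothelial cells.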

How the results depend on the processing

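Over 340 member values each, no value that was called turned its sign under other pseudocounts, no filter, median-of-ratios scaling, no trend or edgeR. Scaling to total reads was not among the alternatives. They therefore do not test the raised scale of the P56 cardiomyocyte values. Of values called under neither setting, 169 changed sign over all alternatives, 127 of them with 1 library left out. A pseudocount of 1 and no filter changed no call, a pseudocount of 0.1 gained 2 calls, median-of-ratios scaling gained 4, no trend lost 1, and edgeR lost 2 and gained 9. Leaving out 1 library at a time lost 108 calls and gained 71 over 8320 values, called or not. Leaving out the libraries over 5% 18S lost 15 calls and gained 7 over 300 values, called or not. The 1 value that was called and had turned was Hif1a after MI at P56 in cardiomyocytes, at -0.41 without both libraries numbered 3. The members called after MI at P1 in cardiomyocytes were 0 to 1 with 1 library left out, and 1 without the 18S libraries. After MI at P56 in cardiomyocytes they were 0 to 1, and 2 without both libraries numbered 3, which also gave 2 for the difference between ages. The difference between ages in fibroblasts gave 1 to 3 with 1 library left out, 1 under the replicate block and 1 without the 18S libraries. MI at P56 in endothelial cells gave 2 to 4, the difference between ages there 1 to 2, and the age difference of fibroblasts minus endothelial cells 3 to 5. Within a population, same-numbered MI and sham libraries correlated at -0.43 to 0.36, and the labels do not say whether they share more than a number. The replicate block then lost 1 call (Adm, difference between ages in fibroblasts, adjusted p = 0.0534) and gained 2 (Hif1a lower after MI at P1 in leukocytes, -0.34, 0.0357, and Egln1 with age in fibroblasts, 0.0492). Between populations, all 4 same-numbered pairs correlated above 0.1 in 12 of 24 pairs of groups, among them all 6 of P56 sham. With the number within age as a replicate block, an alternative added after the results were seen, 0 calls were lost and 12 gained over 180 values, called or not. Genes called over the whole table moved by more than 1.5 times for MI at P1 in cardiomyocytes (53, and 15 to 226 under alternatives), fibroblasts (372, and 194 or 680) and endothelial cells (34, and 1 under the replicate block to 472), for MI at P56 in cardiomyocytes (1498, and 4612 without both libraries numbered 3) and for its difference between ages (270, and 170 or 3452). Median-of-ratios scaling shifted the median of all genes by -0.10 for MI at P56 in cardiomyocytes, where the share of calls that were higher was 76.2%, against 89.4% as deposited. It shifted it by -0.13 for the difference between ages there, and by 0.10 for the age difference of cardiomyocytes minus fibroblasts. The edgeR scaling shifted it by -0.14 to -0.19 for 4 comparisons of cardiomyocytes. The ratio of Hif1a to Epas1 kept its sign with any library left out, when the smallest possible p is 0.0571. Depth left no member at or under 3 reads.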
